A study of Mus musculus with 12 samples.

Results

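Oxidative phosphorylation was followed here through 93 genes with symbols of the subunit families of its 5 protein complexes, not all of which need be structural subunits. They were picked by gene symbol from the 49315 genes of the count table: 83 genes of the nuclear genome and 10 genes of the mitochondrial genome. Of these, 90 had enough counts to be tested, 80 of them nuclear, among 16565 tested genes in all. The 3 nuclear genes under the filter, Cox7b2, Cox8b and Cox8c, had 0 to 3 counts in every library. The mitochondrial genes mt-Nd3, mt-Nd4l and mt-Co3 were left out of the set because of their nuclear copies and are described separately.

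RNA was sequenced in bulk from primary chondrocytes of the epiphyses, the growing ends of the long bones, taken from 5-day-old mice labelled female. The 4 genotypes, with 3 libraries each, were Phlpp1 KO, Phlpp2 KO, Phlpp1/2 KO (both genes lost) and WT. Phlpp1 and Phlpp2 encode phosphatases that act on AKT and other kinases. Cells of every group were freed with collagenase, frozen until enough had been collected, thawed and cultured overnight with serum, and the labels do not say whether a library came from 1 animal or several, nor how the alleles were made. The strain is given as C57BL6 for Phlpp1 KO, Phlpp2 KO 1 and 2 and WT, as C57BL7 for Phlpp2 KO 3, and as C57BL8, C57BL9 and C57BL10 for Phlpp1/2 KO 1, 2 and 3.

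The 12 libraries held 21706337 to 33115345 counts each. Levels are given as CPM, counts scaled to a library of 1e6, where a single count stands for 0.0295 to 0.0453 CPM. Col2a1, the main collagen of cartilage, stood at 20753 to 40258 CPM across the 12 libraries. Phlpp1 had 9.25, 9.46 and 8.78 CPM in Phlpp1 KO and 8.12, 7.71 and 8.83 CPM in Phlpp1/2 KO, against 43.8, 35.1 and 40.0 CPM in WT. Phlpp2 had 17.1, 16.8 and 19.4 CPM in Phlpp2 KO and 11.1, 10.2 and 11.4 CPM in Phlpp1/2 KO, against 28.1, 22.5 and 25.8 CPM in WT; its fall passed the test in Phlpp1/2 KO (adjusted p = 2.97e-05) but not in Phlpp2 KO (adjusted p = 0.0607), both by edgeR's quasi-likelihood test. The library Phlpp1/2 KO 1 went against its label of female: 4 Y-linked genes summed to 108.5 CPM there and to at most 1.23 CPM elsewhere, and Xist stood at 3.77 CPM. Xist was also low in Phlpp1 KO 1, at 13.9 CPM, against at least 278 CPM in the 10 remaining libraries. Without these 2 libraries 0 members were called by edgeR in any comparison, the same count as with all 12. Of all genes, only 18 were called there in Phlpp1 KO and 4 in the interaction, so this 0 says little about the members.

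Oxidative phosphorylation makes most of the ATP of many cell types. Complexes I to IV pass electrons from NADH and succinate to oxygen and, except for complex II, pump protons out of the mitochondrial matrix; complex V, the ATP synthase, uses the returning protons to make ATP. Complexes I, III, IV and V are built from subunits of both genomes, whereas complex II is encoded in the nucleus alone. Chondrocytes live in cartilage without blood vessels and are known for relying largely on glycolysis.

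Reads of several mitochondrial genes cannot be placed by sequence alone. A stretch of chromosome 1 (24611535 to 24616197, minus strand, mm10) carries annotated copies of mt-Co1, mt-Co2, mt-Atp6, mt-Co3, mt-Nd3, mt-Nd4l and mt-Nd4. Stretches of 60 bases from 3 such pairs are shown because counts of the genes and of their copies enter the results; they come from the GENCODE vM21 transcripts (GRCm38), and capitals mark bases that differ within a pair.
mt-Nd3: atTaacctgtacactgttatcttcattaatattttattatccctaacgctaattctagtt
Gm28438: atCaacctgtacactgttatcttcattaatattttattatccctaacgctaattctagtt
mt-Co2: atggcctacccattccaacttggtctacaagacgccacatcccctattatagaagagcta
Gm28661: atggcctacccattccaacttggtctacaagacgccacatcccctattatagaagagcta
mt-Co1: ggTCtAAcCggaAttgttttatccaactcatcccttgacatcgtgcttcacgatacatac
Gm29216: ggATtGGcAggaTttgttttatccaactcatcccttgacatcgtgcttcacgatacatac

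The stretches are chrM:9459-9518 for mt-Nd3, chrM:7013-7072 for mt-Co2 and chrM:6381-6440 for mt-Co1, all on the plus strand, and chr1:24613060-24613119 for Gm28438, chr1:24615506-24615565 for Gm28661 and chr1:24616138-24616197 for Gm29216, all on the minus strand. For mt-Co1 the stretch begins at position 1054 of the gene, counted from its first base, where its copy starts. The copy Gm28661 matched mt-Co2 at all 681 bases compared, and Gm10925 matched mt-Atp6 at all 678. Gm28439 matched the first 876 bases of mt-Nd4, which are 63.6% of the gene, with 0 differences. Gm29216 covered 31.8% of mt-Co1 and differed at 6 of 492 bases, all visible above. Gm28438 differed from mt-Nd3 by the single substitution T3C in 345 bases, counted from the first base of the gene.

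As a measure of how far reads can be told apart, the share of 50-base windows that a gene has in common with another annotated transcript was counted. It was 0% for mt-Nd1, mt-Nd6, mt-Cytb and mt-Atp8, 8.19% for mt-Nd2, 7.61% for mt-Nd5, 51.1% for mt-Co1, 62.2% for mt-Nd4, 99.5% for mt-Atp6 and 100% for mt-Co2. In the same measure, the nuclear members Ndufs3, Ndufb4 and Atp5o shared 39.7%, 37% and 34.9% of their windows with other genes, while Cox4i2, Ndufa4l2, Cox8a and Ndufv1 shared 0%. Levels of the genes with a high share are therefore uncertain. Copies outside annotated transcripts were not examined, so a share of 0% does not exclude a copy.

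Within WT, levels were set by length as mean CPM per kilobase of all annotated exons of a gene together. This length can exceed that of the longest transcript, with 4237 against 1916 bases for Atp5b and 702 against 620 for Cox6a1. The order of the genes therefore rests on this choice of length. By it, 5 of the 10 mitochondrial genes were highest, mt-Co1, mt-Nd1, mt-Cytb, mt-Nd2 and mt-Nd5. mt-Co1 and mt-Nd1, core subunits of complexes IV and I, stood at 1533 and 1509 CPM per kilobase, and mt-Cytb, the cytochrome b of complex III, at 1087. The highest nuclear members by this measure were Atp5b and Atp5a1, the beta and alpha subunits of the ATP synthase, at 315.8 and 313.6 CPM per kilobase, followed by Cox6a1 at 260.8. mt-Nd6 and mt-Nd4, at 300.5 and 264.4 CPM per kilobase, lay between Atp5a1 and Cox6a1. mt-Co2, mt-Atp6 and mt-Atp8 stood at only 12.6, 11.6 and 18.7 CPM per kilobase. The first 2 of these are the members with an annotated copy of nearly their full length. mt-Atp8 (7766 to 7969) starts between mt-Co2 and mt-Atp6, whose copies both lie in the stretch of chromosome 1.

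The summed level of the 10 mitochondrial genes was higher in each knockout than in WT on average, while that of the 83 nuclear genes was close to WT. The mitochondrial sum was 8487, 9031 and 10925 CPM in Phlpp1 KO, 10182, 9036 and 11460 CPM in Phlpp2 KO and 7752, 7398 and 10140 CPM in Phlpp1/2 KO, against 6966, 7403 and 6757 CPM in WT. All Phlpp1 KO and Phlpp2 KO libraries lay above all WT libraries, and Phlpp1/2 KO overlapped WT. The ratios of the group means were 1.35, 1.45 and 1.197 for Phlpp1 KO, Phlpp2 KO and Phlpp1/2 KO over WT.

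The nuclear sum was 9081, 9450 and 8703 CPM in Phlpp1 KO, 9251, 9667 and 9059 CPM in Phlpp2 KO and 9745, 9989 and 9159 CPM in Phlpp1/2 KO, against 8973, 10054 and 8985 CPM in WT. All 3 knockouts overlapped WT, with ratios of the means of 0.972, 0.999 and 1.03. The mitochondrial over the nuclear sum averaged 1.05 ± 0.18 in Phlpp1 KO, 1.1 ± 0.17 in Phlpp2 KO and 0.881 ± 0.198 in Phlpp1/2 KO, against 0.755 ± 0.020 in WT (SD, n = 3 each). In bulk RNA, fewer cells of a type and less RNA per cell cannot be told apart, and the same holds for higher levels.

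**Figure D1:**
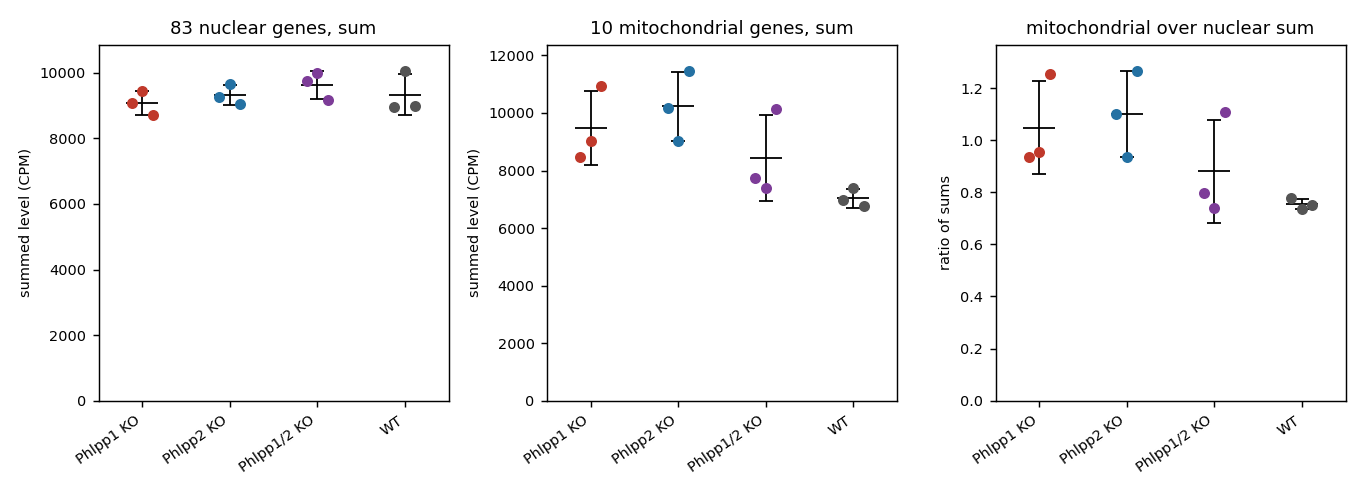
Summed CPM of the 83 nuclear and 10 mitochondrial genes and the ratio of these sums in each library; points are libraries, and bars give the mean and SD of 3. The mitochondrial sums of Phlpp1 KO and Phlpp2 KO lie above all WT libraries, Phlpp1/2 KO spreads from 7398 to 10140 CPM, and the nuclear sums of all groups overlap.

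In each knockout the library numbered 3 had the highest mitochondrial sum, whereas in WT it was the library numbered 2. The 4 libraries with the highest mitochondrial sums were Phlpp1 KO 3, Phlpp2 KO 1, Phlpp2 KO 3 and Phlpp1/2 KO 3. A list of 7 RNAs retained in the nucleus, taken as a sign of RNA quality, summed to 1569, 1549, 1531 and 1661 CPM in these 4 libraries and to 1030 to 1492 CPM in the other 8. Without Xist, which 2 libraries nearly lacked, the remaining 6 RNAs summed to 981.6, 1002, 955.1 and 1092 CPM in the 4 and to 752.5 to 1190 CPM in the other 8. A list of 14 cell cycle genes summed to 2378 to 2516 CPM in Phlpp1 KO, 2150 to 2815 CPM in Phlpp2 KO and 2395 to 2686 CPM in Phlpp1/2 KO, against 2085 to 2332 CPM in WT. The part of RNA quality and of cell division in the mitochondrial levels was not tested.

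None of the 10 mitochondrial genes was called in any knockout by edgeR's quasi-likelihood test (adjusted p under 0.05 over all tested genes). The test called 0.537% of all tested genes in Phlpp1 KO, 0.121% in Phlpp2 KO and 0.235% in Phlpp1/2 KO. At an unadjusted p under 0.05, 6, 9 and 4 of the 10 were higher in Phlpp1 KO, Phlpp2 KO and Phlpp1/2 KO, and 0 were lower; of all tested genes, 10.8%, 8.48% and 4.99% were higher at that level. limma-voom called 0 of the 10 in each knockout, and 0.513%, 0.0785% and 0.229% of all tested genes. DESeq2 called 3, 8 and 0, where it called 7.41%, 2.27% and 1.17% of all genes it adjusted. With only the Phlpp1 KO and WT libraries in the fit, edgeR called 3 of the 10 as higher, mt-Nd1, mt-Co1 and mt-Co2, and 7.38% of all genes tested; the same fits for Phlpp2 KO and Phlpp1/2 KO called 0 of the 10, beside 0.165% and 0.357%.

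Log2 fold changes of all 10 were above 0 in each knockout. Their median log2 fold change was 0.35 in Phlpp1 KO, 0.53 in Phlpp2 KO and 0.26 in Phlpp1/2 KO, beside -0.01, -0.02 and -0.00 over all tested genes. The 3 comparisons share the WT libraries, and the 10 genes are cut from long common transcripts, so neither the knockouts nor the genes are independent of one another. Without Phlpp1/2 KO 3 the median in Phlpp1/2 KO was 0.10. The 6 genes with under 10% of shared windows (mt-Nd1, mt-Nd2, mt-Nd5, mt-Nd6, mt-Cytb and mt-Atp8) had medians of 0.30, 0.51 and 0.23 in the 3 knockouts. Without mt-Atp8, which had few counts and whose neighbours have copies on chromosome 1, the medians of the other 5 were 0.31, 0.49 and 0.19.

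mt-Co1, the catalytic subunit of complex IV (mitochondrial genome, 5328 to 6872, plus strand), had 3136, 3140 and 3606 CPM in Phlpp1 KO, 3436, 3029 and 3820 CPM in Phlpp2 KO and 2701, 2671 and 3319 CPM in Phlpp1/2 KO, against 2298, 2557 and 2248 CPM in WT. All 9 knockout libraries lay above all 3 WT libraries, which held for 1.66% of all tested genes and for no other of the 90 tested members; 0 members lay below WT in all 9, beside 2.05% of all tested genes. Log2 fold changes were 0.48 (SE 0.10) in Phlpp1 KO, 0.53 (SE 0.10) in Phlpp2 KO and 0.29 (SE 0.10) in Phlpp1/2 KO. The adjusted p of edgeR was 0.0633, 0.0907 and 0.325, so that mt-Co1 missed the threshold in each; DESeq2 called it in Phlpp1 KO (adjusted p = 0.00298) and Phlpp2 KO (adjusted p = 0.000843). edgeR called mt-Co1 in Phlpp1 KO without Phlpp2 KO 1 or without Phlpp2 KO 2 (adjusted p = 0.0447 and 0.0351), and in Phlpp2 KO without Phlpp2 KO 2 (adjusted p = 0.0421). Without Phlpp1/2 KO 3 it called mt-Co1 in both (adjusted p = 0.0225 and 0.0306).

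mt-Cytb (14145 to 15288, plus strand) had 1435, 1708 and 2245 CPM in Phlpp1 KO, 1863, 1571 and 2233 CPM in Phlpp2 KO and 1340, 1241 and 1954 CPM in Phlpp1/2 KO, against 1273, 1232 and 1226 CPM in WT. The knockout libraries differed among themselves by far more than the WT libraries did, and only Phlpp1/2 KO overlapped WT. Its log2 fold changes were 0.53 (SE 0.20), 0.60 (SE 0.20) and 0.28 (SE 0.20) in the 3 knockouts, with adjusted p of 0.167, 0.239 and 0.635 by edgeR.

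Among the complex I genes, mt-Nd1, which lies in the membrane arm next to the quinone site, had 1737, 1930 and 2052 CPM in Phlpp1 KO, 2123, 1895 and 2235 CPM in Phlpp2 KO and 1596, 1534 and 2208 CPM in Phlpp1/2 KO, against 1416, 1543 and 1373 CPM in WT. Phlpp1 KO and Phlpp2 KO lay above WT, and Phlpp1/2 KO overlapped it. mt-Nd2, mt-Nd4 and mt-Nd5, proton-pumping subunits, and mt-Nd6, the one member on the opposite strand, had log2 fold changes of 0.23 to 0.45 in Phlpp1 KO, 0.42 to 0.63 in Phlpp2 KO and 0.15 to 0.22 in Phlpp1/2 KO. In Phlpp2 KO all 5 complex I genes lay above WT in every library; in Phlpp1 KO mt-Nd2 and mt-Nd6 overlapped WT. mt-Nd5 and mt-Nd6 overlap in the genome on opposite strands, and reads from their shared end cannot be told apart where strand is not counted.

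The low-count mitochondrial genes followed in part. mt-Co2, the copper-binding subunit of complex IV, had 10.9, 12.2 and 12.7 CPM in Phlpp1 KO, 14.7, 11.6 and 12.7 CPM in Phlpp2 KO and 10.2, 9.76 and 11.6 CPM in Phlpp1/2 KO, against 8.28, 9.84 and 7.65 CPM in WT. Phlpp1 KO and Phlpp2 KO lay above WT (log2 fold changes 0.47 and 0.59, SE 0.13 and 0.12), with adjusted p of 0.0944 and 0.135 by edgeR. mt-Atp6 and mt-Atp8 encode membrane subunits of the ATP synthase and overlap on the same strand. mt-Atp6 overlapped WT in each knockout, at 6.79 to 11.1 CPM over all 12 libraries, and mt-Atp8, at 3.26 to 5.92 CPM, lay above WT in Phlpp2 KO and Phlpp1/2 KO. Counting genes that lay above WT in all 3 libraries gave 6 of 10 in Phlpp1 KO, 9 in Phlpp2 KO and 2 in Phlpp1/2 KO, beside 14.9%, 10.3% and 8.57% of all tested genes.

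**Figure D2:**
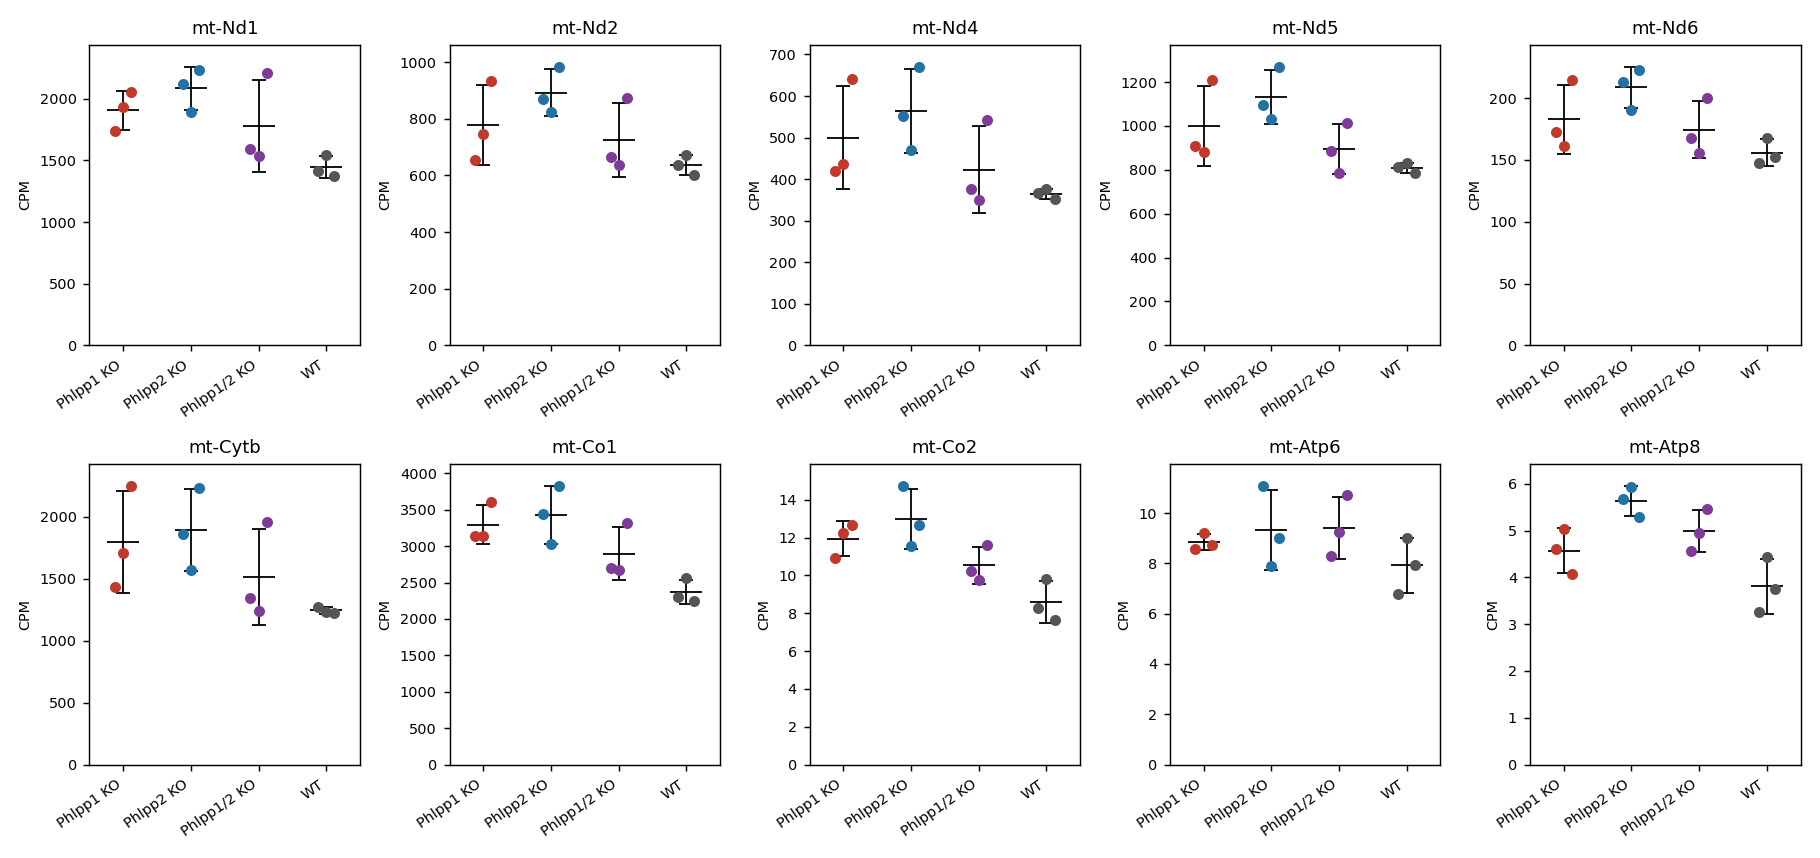
CPM of each of the 10 mitochondrial genes in the 12 libraries, with group means and SD of 3. In mt-Co1 all 9 knockout libraries are above the WT libraries (2248 to 2557 CPM); in mt-Cytb, mt-Nd1 and mt-Nd4, 1 Phlpp1/2 KO library stands above the other two.

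The interaction is the log2 change in Phlpp1/2 KO minus the sum of those in Phlpp1 KO and Phlpp2 KO. It asks whether the losses act additively on this scale. It also takes the opposite sign where all 3 knockouts differ from WT by a similar amount. The 10 mitochondrial genes were higher on average in each knockout, so non-additive losses and a shared difference from WT cannot be told apart. All 10 mitochondrial genes had an interaction below 0, with a median of -0.64 beside 0.04 over all tested genes, and none was called by edgeR, which called 0.0483% of all tested genes. At an unadjusted p under 0.05, 9 of the 10 were lower, beside 10.1% of all tested genes; limma-voom called 0, beside 0.0423% of all tested genes, and DESeq2 6, where it called 5.69% of the genes it adjusted. The value for mt-Co1 was -0.72 (SE 0.15, adjusted p = 0.151 by edgeR), and without Phlpp2 KO 2 it was called (adjusted p = 0.0393). The count turns on 1 library: without Phlpp1/2 KO 3, edgeR called 8 of the 10 as lower in the interaction, all but mt-Atp6 and mt-Atp8, beside 7.11% of all genes tested. Without that library it also called mt-Nd1, mt-Co1 and mt-Co2 as higher in Phlpp1 KO and in Phlpp2 KO, beside 3.84% and 0.945% of all genes tested.

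The nuclear genes showed small differences. None of the 80 tested was called by edgeR in any knockout or in the interaction, where it called 0.537%, 0.121%, 0.235% and 0.0483% of all tested genes, and limma-voom also called 0. At an unadjusted p under 0.05, 1 was higher and 9 lower in Phlpp1 KO, 3 were higher in Phlpp2 KO, 1 was higher and 1 lower in Phlpp1/2 KO, and 4 were higher in the interaction. Of all tested genes, 9.54% were lower at that level in Phlpp1 KO, 5.29% in Phlpp2 KO and 6.09% in Phlpp1/2 KO, while 10.8%, 8.48% and 4.99% were higher in these knockouts and 4.48% were higher in the interaction. DESeq2 called 3 as lower in Phlpp1 KO, Ndufa11, Cox4i2 and Ndufa4l2, and 1 in Phlpp1/2 KO, Cox4i2. It called 7.41% and 1.17% of all genes it adjusted in these comparisons, so that the nuclear members were not called more often than other genes in Phlpp1 KO and were near the background in Phlpp1/2 KO.

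Median log2 fold changes of the 80 were -0.06 in Phlpp1 KO, -0.00 in Phlpp2 KO and 0.04 in Phlpp1/2 KO. In Phlpp1 KO 68 of the 80 were below 0; without WT 2 the median there was 0.02, so its sign rests on that library. WT 2 had the highest nuclear sum of the WT libraries, and the 17 skeletal muscle markers summed to 145.7 CPM in it. The same sum was 16.6 to 69.5 CPM in Phlpp1 KO, 13.1 to 25.4 CPM in Phlpp2 KO and 23.4 to 39.4 CPM in Phlpp1/2 KO, against 34.1 and 29.8 CPM in the other WT libraries. The defining muscle genes Myog and Myod1 were above 0 in all 12 libraries and stood at 30.7 and 13.9 CPM in WT 2. The part of muscle cells in the nuclear levels was not tested. Libraries of Phlpp1 KO lay below all WT libraries in 11 of the 80, those of Phlpp2 KO in 4 and those of Phlpp1/2 KO in 3, beside 13.3%, 8.87% and 10.3% of all tested genes. They lay above all WT libraries in 1, 1 and 0 of the 80, beside 14.9%, 10.3% and 8.57%.

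**Figure D3:**
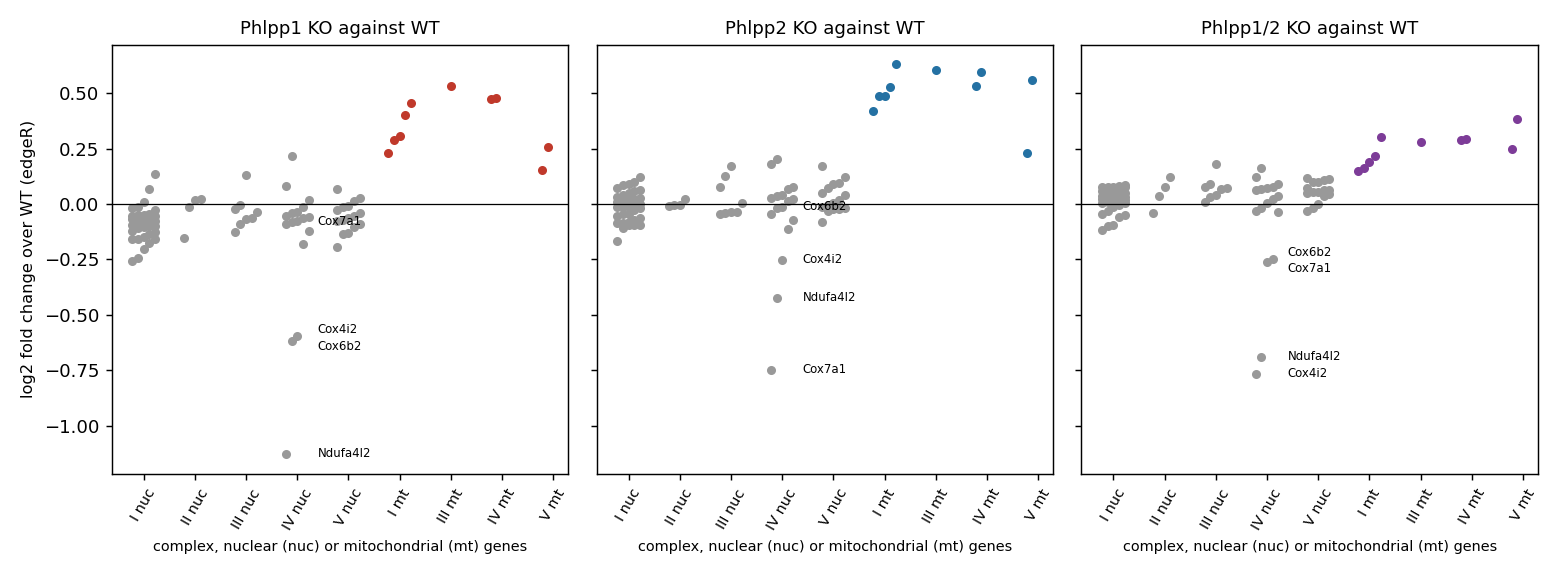
Log2 fold change over WT for each tested gene of the 5 complexes, nuclear genes in grey and mitochondrial genes in colour, in Phlpp1 KO, Phlpp2 KO and Phlpp1/2 KO. The mitochondrial genes lie above 0 in each knockout; the nuclear genes lie around 0 except for a few complex IV genes at low counts or named in the text, such as Ndufa4l2 at -1.13 and Cox4i2 at -0.60 in Phlpp1 KO.

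Complex I is the entry for electrons from NADH, and its 35 nuclear members summed to 2000 to 2170 CPM in Phlpp1 KO, 2135 to 2299 CPM in Phlpp2 KO and 2134 to 2320 CPM in Phlpp1/2 KO, against 2117 to 2416 CPM in WT. Ndufa11, an accessory subunit of the membrane arm (chromosome 17, 56717767 to 56722141), had 31.8, 37.7 and 32.8 CPM in Phlpp1 KO, 36.8, 38.4 and 38.4 CPM in Phlpp2 KO and 37.3, 38.6 and 37.0 CPM in Phlpp1/2 KO, against 41.1, 42.7 and 38.5 CPM in WT. Phlpp1 KO lay below WT, Phlpp2 KO lay just below it, and Phlpp1/2 KO overlapped it. In Phlpp1 KO the log2 fold change was -0.26 (SE 0.07, adjusted p = 0.0977 by edgeR), the smallest adjusted p of any nuclear member in that knockout. Ndufv3, an accessory subunit near the NADH site, had 24.9, 24.8 and 24.1 CPM in Phlpp1 KO, against 28.1, 30.1 and 29.1 CPM in WT (log2 fold change -0.24, SE 0.09, adjusted p = 0.147 by edgeR). It also lay below WT in Phlpp1/2 KO, at 27.73, 26.86 and 26.85 CPM (log2 fold change -0.10, SE 0.09, adjusted p = 0.712 by edgeR), and overlapped WT in Phlpp2 KO.

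Ndufs1, the largest iron-sulfur subunit, was the one nuclear member above WT in all 3 Phlpp1 KO libraries, beside 14.9% of all tested genes. It had 106.9, 112.6 and 103.3 CPM, against 96.7, 102.5 and 94.7 CPM in WT (log2 fold change 0.14, SE 0.06, adjusted p = 0.244 by edgeR). The core subunit Ndufv1, which binds NADH, averaged 100.9 ± 2.8 CPM in Phlpp1 KO, 102.3 ± 1.7 CPM in Phlpp2 KO and 111.1 ± 4.6 CPM in Phlpp1/2 KO, against 108.1 ± 4.1 CPM in WT (SD, n = 3 each). Its Phlpp1 KO libraries lay below WT, its Phlpp2 KO libraries lay just below it, and Phlpp1/2 KO overlapped it. Its interaction of 0.22 (SE 0.07) had an adjusted p of 0.183 by edgeR. Ndufa9 and Ndufb8, further accessory subunits, overlapped WT in each knockout. Of 3 more complex I genes with small adjusted p, Ndufb7 and Ndufs5 overlapped WT in each knockout, and Ndufs7, an iron-sulfur core subunit, lay below WT in Phlpp2 KO alone, at 44.1, 49.6 and 48.6 CPM, against 51.6, 57.7 and 50.2 CPM in WT (log2 fold change -0.16, SE 0.08, adjusted p = 0.384 by edgeR).

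Complex II, which also belongs to the tricarboxylic acid cycle, summed to 604.5 to 643.4 CPM in Phlpp1 KO, 616.8 to 639.5 CPM in Phlpp2 KO and 632.2 to 662.6 CPM in Phlpp1/2 KO, against 617.2 to 650.9 CPM in WT. Sdha, its flavoprotein, differed from WT by a log2 value of 0.02, -0.00 and 0.04 in the 3 knockouts (SE 0.05 each), and Sdhb and Sdhd overlapped WT. Sdhc, a membrane anchor, had 82.5, 84.4 and 81.0 CPM in Phlpp1 KO, against 89.2, 98.5 and 88.0 CPM in WT. Those groups did not overlap, and the log2 fold change in Phlpp1 KO was -0.15 (SE 0.06) at an adjusted p of 0.170 by edgeR.

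The 8 nuclear members of complex III, which hands electrons to cytochrome c, summed to 777.1 to 860.2 CPM in Phlpp1 KO, 810.2 to 859.2 CPM in Phlpp2 KO and 830.3 to 911.3 CPM in Phlpp1/2 KO, against 790.5 to 899.1 CPM in WT. Core proteins Uqcrc1 and Uqcrc2 and the Rieske protein Uqcrfs1 overlapped WT in each knockout. Uqcrb, a small subunit at the quinone site, had log2 fold changes of 0.13, 0.17 and 0.18 (SE 0.07 each) in Phlpp1 KO, Phlpp2 KO and Phlpp1/2 KO, with adjusted p of 0.306, 0.308 and 0.346 by edgeR, and overlapped WT each time; 19.2% of its windows are shared with other genes.

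Complex IV, cytochrome c oxidase, passes electrons to oxygen, and its 20 nuclear members summed to 1384 to 1521 CPM in Phlpp1 KO, 1512 to 1687 CPM in Phlpp2 KO and 1464 to 1647 CPM in Phlpp1/2 KO, against 1454 to 1739 CPM in WT. Cox5a, Cox5b and Cox6c overlapped WT in each knockout. Cox8a, the smallest subunit in most tissues, had 142.2, 151.7 and 143.0 CPM in Phlpp2 KO, against 123.4, 140.5 and 121.5 CPM in WT, without overlap (log2 fold change 0.18, SE 0.07, adjusted p = 0.275 by edgeR).

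Several complex IV subunits have a second isoform. Cox4i2, which replaces Cox4i1 and is known as a form used at low oxygen in lung, is at chromosome 2, 152754173 to 152765037. It had 14.9, 14.7 and 13.2 CPM in Phlpp1 KO, 12.3, 20.02 and 22.1 CPM in Phlpp2 KO and 13.9, 13.2 and 11.02 CPM in Phlpp1/2 KO, against 17.4, 23.8 and 23.6 CPM in WT. Phlpp1 KO and Phlpp1/2 KO lay below all WT libraries, and Phlpp2 KO overlapped them. Log2 fold changes were -0.60 (SE 0.19) in Phlpp1 KO and -0.77 (SE 0.19) in Phlpp1/2 KO, with adjusted p of 0.125 and 0.193 by edgeR. Without Phlpp2 KO 1, the lowest library of its group, edgeR called Cox4i2 as lower in Phlpp1 KO and in Phlpp1/2 KO (adjusted p = 0.0316 and 0.0196), and with only the Phlpp1 KO and WT libraries in the fit as lower in Phlpp1 KO (adjusted p = 0.018).

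Cox4i1, the common form, had 242.8, 252.8 and 229.4 CPM in Phlpp1 KO, 248.6, 283.3 and 262.8 CPM in Phlpp2 KO and 275.7, 279.7 and 247.2 CPM in Phlpp1/2 KO, against 260.1, 299.7 and 261.2 CPM in WT. Only Phlpp1 KO lay below all WT libraries (log2 fold change -0.18, SE 0.08, adjusted p = 0.203 by edgeR). Ndufa4l2, a relative of the complex IV subunit Ndufa4 known as a target of the hypoxia factor HIF1A (chromosome 10, 127514967 to 127517154), had 20.9, 11.1 and 17.3 CPM in Phlpp1 KO, 16.2, 39.1 and 24.8 CPM in Phlpp2 KO and 25.0, 23.7 and 18.2 CPM in Phlpp1/2 KO, against 25.7, 43.8 and 38.1 CPM in WT. Again Phlpp1 KO and Phlpp1/2 KO lay below WT and Phlpp2 KO overlapped it. Log2 fold changes were -1.13 (SE 0.33) in Phlpp1 KO and -0.69 (SE 0.32) in Phlpp1/2 KO, with adjusted p of 0.113 and 0.465 by edgeR, while Ndufa4 itself overlapped WT in each knockout.

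A list of 27 glycolysis and hypoxia response genes was read beside these isoforms. In Phlpp1 KO 26 of the 27 were below 0, with a median log2 fold change of -0.20. edgeR and limma-voom called 0, beside 0.537% and 0.513% of all tested genes, and 10 were lower at an unadjusted p under 0.05, beside 9.54%. In Phlpp1 KO, Phlpp2 KO and Phlpp1/2 KO, 19, 0 and 6 of the 27 lay below all WT libraries, beside 13.3%, 8.87% and 10.3% of all tested genes. Above all WT libraries lay 1, 0 and 1, beside 14.9%, 10.3% and 8.57%. DESeq2 called 2 as lower, Aldoc and Pfkfb3, named after their values were seen; it called 7.41% of all genes it adjusted, a share near that of the list. The medians were -0.07 in Phlpp2 KO and -0.08 in Phlpp1/2 KO, where 1 and 2 of the 27 were lower at an unadjusted p under 0.05, beside 5.29% and 6.09% of all tested genes. There all 3 tools called 0 of the 27, where they called at most 2.27% and 1.17% of all genes. The summed level of the 27 was 15018, 15824 and 16987 CPM in Phlpp1 KO, 15551, 19408 and 17206 CPM in Phlpp2 KO and 18086, 17309 and 16923 CPM in Phlpp1/2 KO, against 17156, 18740 and 17871 CPM in WT. All Phlpp1 KO sums lay below all WT sums, and the other knockouts overlapped WT.

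**Figure D4:**
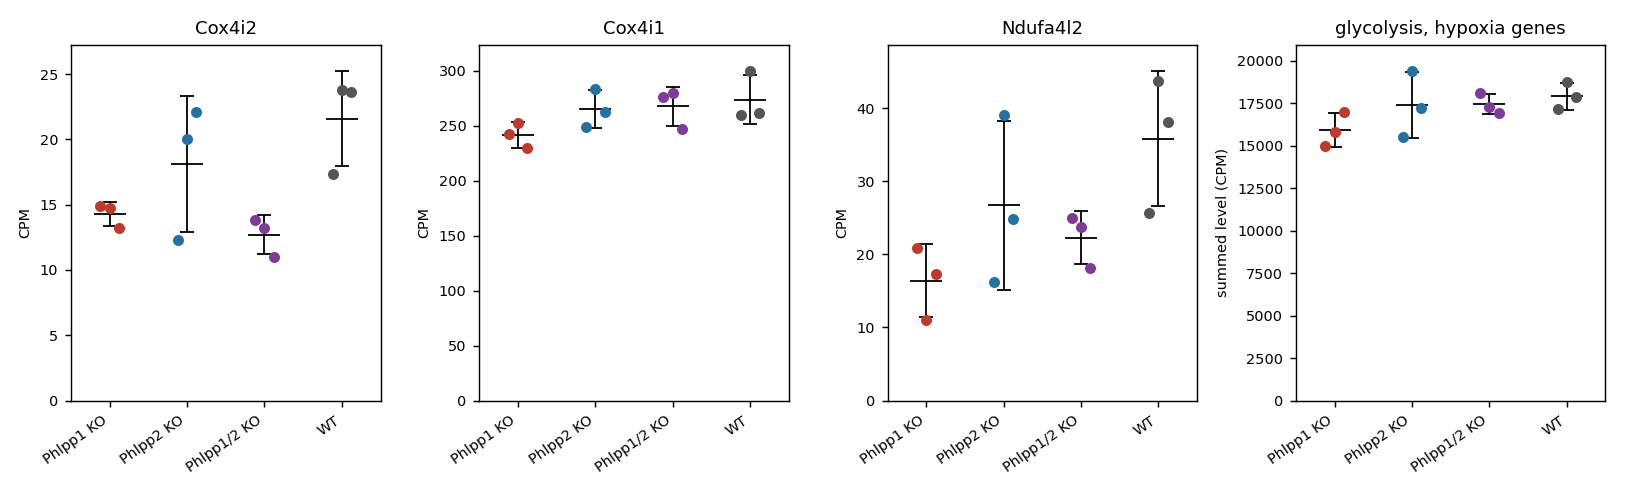
CPM of Cox4i2, Cox4i1 and Ndufa4l2 and the summed CPM of 27 glycolysis and hypoxia genes in the 12 libraries, with group means and SD of 3. Cox4i2 and Ndufa4l2 lie below all WT libraries in Phlpp1 KO and Phlpp1/2 KO and overlap the WT libraries in Phlpp2 KO.

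The isoforms known from heart and skeletal muscle were near 0: Cox6a2 reached at most 1.35 CPM and Cox7a1 at most 0.58 CPM in any library, and Cox8b had 0 to 3 counts. Their common partners Cox6a1, Cox7a2 and Cox8a averaged 183.1, 78.4 and 128.5 CPM in WT. Cox6b2, known as the testis form, had 1.89, 1.41 and 1.097 CPM in Phlpp1 KO, against 1.95, 2.56 and 2.26 CPM in WT (log2 fold change -0.62, SE 0.24, adjusted p = 0.175 by edgeR), beside 95.7 to 121.5 CPM of Cox6b1 over all 12 libraries.

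The ATP synthase had the highest summed level of the nuclear sets. Its 16 nuclear members summed to 3937 to 4256 CPM in Phlpp1 KO, 3985 to 4185 CPM in Phlpp2 KO and 4098 to 4450 CPM in Phlpp1/2 KO, against 3953 to 4349 CPM in WT. Atp5b averaged 1362 ± 58 CPM in Phlpp1 KO, 1322 ± 22 CPM in Phlpp2 KO and 1435 ± 65 CPM in Phlpp1/2 KO, against 1338 ± 39 CPM in WT (SD, n = 3 each), and overlapped WT each time. Atp5a1, the stalk subunits Atp5o and Atp5f1, and Atp5l, subunit g, also overlapped WT in each knockout. The X-linked members Ndufa1, Ndufb11 and Cox7b had log2 fold changes from -0.09 to 0.20 over the 3 knockouts and overlapped WT in each. Cox7b, a small complex IV subunit, had the largest of these, in Phlpp2 KO, at 98.5, 99.8 and 86.8 CPM, against 78.4, 94.9 and 74.2 CPM in WT (SE 0.09, adjusted p = 0.356 by edgeR).

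The genes left out of the set differed between the knockouts and WT in another way. mt-Nd3, a small complex I subunit, had 1.18, 1.94 and 1.57 CPM in Phlpp1 KO, 1.48, 1.99 and 1.42 CPM in Phlpp2 KO and 2.00, 2.203 and 1.74 CPM in Phlpp1/2 KO, against 18.7, 21.3 and 19.2 CPM in WT. It fell by 3.65, 3.59 and 3.31 on the log2 scale, with adjusted p of 7.11e-08, 1.14e-07 and 1.46e-07 by edgeR. Its copy Gm28438 rose by 2.503, 2.97 and 2.69 on the same scale (adjusted p = 0.000221, 3.82e-05 and 7.8e-05). The gene and the copy together stood at 14.65 to 28.1 CPM in the 9 knockout libraries, against 21.1 to 24.7 CPM in WT, with overlap in each knockout except Phlpp1 KO, whose 3 libraries lay below WT.

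The share of this sum counted as the copy was 87.1% to 94.0% in the knockout libraries, against 10.2% to 13.9% in WT. For mt-Nd4l and Gm10222 it was 57.1% to 70.8% in the knockout libraries, against 19.5% to 21.6% in WT, and for mt-Co3 and Gm28437 57.6% to 64.8%, against 36.0% to 39.2% in WT. mt-Nd4l fell in Phlpp1/2 KO by 1.14 on the log2 scale (adjusted p = 0.0253) and mt-Co3 in Phlpp1 KO by 0.58 (adjusted p = 0.0445), both by edgeR. Each of these calls was lost without any single WT library, among others, with adjusted p of up to 0.16 for mt-Nd4l and 0.191 for mt-Co3. The members mt-Co2 and mt-Atp6 showed no such split: 45.2% to 48.2% was counted as the copy of mt-Co2 in the knockout libraries, against 47.1% to 50.7% in WT, and 54.4% to 60.4% as that of mt-Atp6, against 55.2% to 57.8% in WT. For mt-Nd4 the share was 0.793% to 0.967% in Phlpp1 KO, against 0.790% to 0.884% in WT. It lay above WT in Phlpp2 KO (0.942% to 1.095%) and Phlpp1/2 KO (0.932% to 1.022%). For mt-Co1 it was 0.116% to 0.137% in the knockout libraries, against 0.125% to 0.160% in WT. Which base the samples carry at the site of T3C (mitochondrial genome, 9461) was not examined here, and differences in mitochondrial sequence between the knockouts and WT cannot be told apart from the genotypes.

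**Figure D5:**
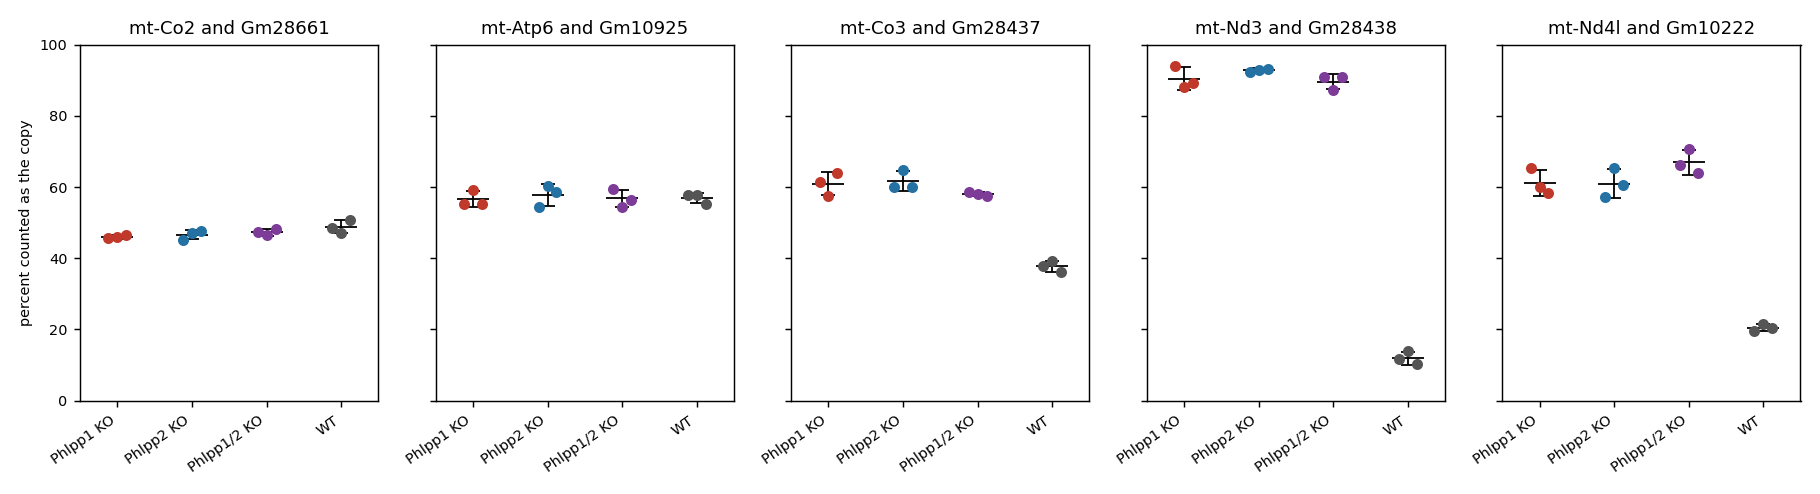
Percent of the counts of a mitochondrial gene and its chromosome 1 copy that were counted as the copy, for the members mt-Co2 and mt-Atp6 and the left-out mt-Co3, mt-Nd3 and mt-Nd4l, with group means and SD of 3. For mt-Nd3 all 9 knockout libraries lie above 87% and all WT libraries below 14%, while mt-Co2 and mt-Atp6 show similar shares in all groups.

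Other genes of the pathway were read from lists of partners. By edgeR or limma-voom, none was called in any comparison among 51 assembly factors, 29 genes of mitochondrial DNA upkeep and transcription, and 15 regulators of mitochondrial biogenesis. The same held for 16 genes of coenzyme Q and cytochrome c and 18 of the tricarboxylic acid cycle. Of all tested genes, edgeR called 0.537%, 0.121%, 0.235% and 0.0483% in Phlpp1 KO, Phlpp2 KO, Phlpp1/2 KO and the interaction. limma-voom called 0.513%, 0.0785%, 0.229% and 0.0423%. For lists of this size, 0 calls are near these shares. DESeq2 called Ndufaf4 and Ecsit among the assembly factors, Fastkd3, Pnpt1 and Trmt10c among the upkeep genes, Coq8a and Dld in Phlpp1 KO, Pnpt1 in Phlpp2 KO, and Pnpt1, Trmt10c and Dld in the interaction; these were named after their values were seen. Over all genes it adjusted, DESeq2 called 7.41% in Phlpp1 KO, 2.27% in Phlpp2 KO and 5.69% in the interaction. At an unadjusted p under 0.05 in Phlpp1 KO, 4 of the 51 assembly factors were higher and 4 lower, and 8 of the 29 upkeep genes were higher and 1 lower, beside 10.8% higher and 9.54% lower of all tested genes. The assembly factors were thus below that background in both directions, while the upkeep genes were above it among the higher and below it among the lower. Median log2 fold changes were -0.03 for the assembly factors and 0.12 for the upkeep genes. Tfam, which packs mitochondrial DNA and starts its transcription, averaged 50.9 ± 1.8 CPM in Phlpp1 KO, 51.5 ± 1.4 CPM in Phlpp2 KO and 50.4 ± 5.6 CPM in Phlpp1/2 KO, against 51.0 ± 2.9 CPM in WT (SD, n = 3 each).

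Polrmt, the mitochondrial RNA polymerase, also overlapped WT in each knockout, with log2 fold changes of -0.08, -0.04 and -0.04. Nrf1, a transcription factor of respiratory genes, had 57.5, 57.0 and 55.3 CPM in Phlpp1 KO, against 52.1, 48.5 and 51.2 CPM in WT (log2 fold change 0.16, SE 0.06, adjusted p = 0.142 by edgeR). Ppargc1a, a coactivator of mitochondrial biogenesis, had 1.21, 1.15 and 1.254 CPM in Phlpp1 KO, against 0.407, 0.865 and 0.765 CPM in WT (log2 fold change 0.80, SE 0.27, adjusted p = 0.135 by edgeR). Neither gene overlapped between Phlpp1 KO and WT. Of the 15 tested regulators of mitochondrial biogenesis, 7, 2 and 3 lay above all WT libraries in Phlpp1 KO, Phlpp2 KO and Phlpp1/2 KO. Of all tested genes, 14.9%, 10.3% and 8.57% did so. In each knockout 1 regulator lay below WT, beside 13.3%, 8.87% and 10.3% of all tested genes.

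Several sequence motifs were more frequent in promoters of the nuclear members than in all promoters, but most of the members' promoters lacked each of them. RefSeq promoters (GRCm38.p6, from 250 bases before to 50 after a start) were found for 66 of the 83, 71 promoters in all, and compared with all 32851. On both strands, the NRF1 core (GCGCA, any base, GCGC) was present in 25.4% of them and in 4.6% of all promoters, the ETS core CCGGAAG in 22.5% and 8.86%, and the YY1 core AAGATGG in 14.1% and 6.34%. The hypoxia core ACGTG was present in 23.9% and 19.6%. A match is a description of letters and not a measured site. The promoters used for comparison were not chosen for similar base content or level. The promoter of Cox6a1 (chr5:115348909-115349208, minus strand) is shown as an example that holds both of the first motifs; capitals mark 2 matches of the NRF1 core and 1 of the ETS core, the last on the opposite strand.
Cox6a1: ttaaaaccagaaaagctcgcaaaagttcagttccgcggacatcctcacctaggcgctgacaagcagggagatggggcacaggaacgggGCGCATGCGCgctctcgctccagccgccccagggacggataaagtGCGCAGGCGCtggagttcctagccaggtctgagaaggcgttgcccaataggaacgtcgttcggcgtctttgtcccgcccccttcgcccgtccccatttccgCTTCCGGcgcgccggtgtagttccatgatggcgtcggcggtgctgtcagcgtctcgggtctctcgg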

How the data were processed

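Values were raw gene counts, deposited by the authors without normalization, for 12 libraries. The submitters' processing notes name bcl2fastq 2.17, STAR 2.5.2b, featureCounts of Subread 1.5.2 and the build mm10; the library kit was NEBNext Ultra II RNA, per the labels' protocols. The sources used here give neither strand setting nor annotation, nor how reads matching several places were counted, and these settings bear on near-identical genes. Rows without a symbol (174 genes) held 0.00419% of all counts.

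All 12 libraries entered 1 genotype model in edgeR 4.0.16 (R 4.3.3; filterByExpr, TMM factors, robust quasi-likelihood test, 8 residual degrees of freedom), with Benjamini-Hochberg adjustment over 16565 genes and a threshold of 0.05. The SE of a log2 fold change came from its ratio to the root of the F statistic, and CPM used TMM-scaled totals. Alternatives included DESeq2 1.42.0 and limma-voom 3.58.1, and the edgeR step was tested on simulated data. Separate animals are not stated for the replicates, so p-values reflect the spread between these samples, which may be technical. Positions came from GENCODE vM21.

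The members, lists, alternatives and naming rule were chosen with earlier results of these data known. The rule named all mitochondrial members, any member called, the 6 nuclear members with the smallest adjusted p per comparison and at least 1 CPM, fixed examples per complex, isoform pairs and X-linked members. The nuclear copies, the genes named for shared windows, the set of 6 with few shared windows (and of 5 without mt-Atp8) and the list sum without Xist were added after values were seen.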

Additional observations from a re-analysis of the deposited data

Results flagged for a closer look

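Among the genes named here, 4 had an interaction of both losses that passed the test (edgeR's quasi-likelihood test). All 4 belong to the split between mitochondrial genes and their chromosome 1 copies, and none is a member of the set. mt-Nd3 had an interaction of 3.93 on the log2 scale (adjusted p = 5.4e-06). Its copy Gm28438 had -2.78 (adjusted p = 0.00161), Gm10222, the copy of mt-Nd4l, -1.73 (adjusted p = 0.00763), and Gm28437, the copy of mt-Co3, -0.93 (adjusted p = 0.0465). Each stood at a similar level in all 3 knockouts and at another level in WT, so the interaction and a difference in read assignment between WT and all knockouts cannot be told apart. The call of Gm28437 was lost when any of 9 single libraries was left out, with adjusted p of up to 0.206, and it was kept without Phlpp2 KO 2, Phlpp1/2 KO 3 or WT 2 (adjusted p = 0.0393, 0.00579 and 0.0257). Without both libraries with low Xist, the calls of Gm28437 and Gm10222 were lost (adjusted p = 0.366 and 0.0838).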

How the results depend on the processing

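edgeR called 89, 20, 39 and 8 genes in Phlpp1 KO, Phlpp2 KO, Phlpp1/2 KO and the interaction, with 0 members among them. Without a filter on low counts it called 461, 110, 102 and 183 genes, and 1 mitochondrial member (mt-Co2) in Phlpp1 KO, Phlpp2 KO and the interaction each. DESeq2 called 990, 317, 168 and 650 genes, with 3 nuclear members in Phlpp1 KO and 1 in Phlpp1/2 KO, and 3, 8 and 6 mitochondrial members in Phlpp1 KO, Phlpp2 KO and the interaction. limma-voom called 13 genes in Phlpp2 KO. With only the compared libraries, 1163 genes were called in Phlpp1 KO, with 1 nuclear and 3 mitochondrial members. Without both libraries with low Xist, 18 genes were called in Phlpp1 KO and 4 in the interaction. With mt-Nd3, mt-Nd4l and mt-Co3 added, 2, 1, 2 and 1 mitochondrial genes were called. The cause of these differences was not tested. Pairing by replicate number was not clear: 6 of 18 same-numbered pairs correlated above 0.1 (-0.266 to 0.457, against -0.417 to 0.417 for differently numbered pairs). Of the 12 libraries, 5 correlated best with their own number. Whether libraries of the same number shared a batch was not tested. With the replicate block, 245, 84 and 308 genes were called in Phlpp1 KO, Phlpp2 KO and the interaction, with 1, 2 and 2 mitochondrial members. mt-Co1 was among these members each time (adjusted p = 0.0336, 0.0349 and 0.0268 by edgeR). Leaving out each library in turn gave 16 to 647, 9 to 159, 18 to 57 and 5 to 1196 called genes, the highest in Phlpp1 KO, Phlpp2 KO and the interaction being without Phlpp1/2 KO 3 and the lowest in Phlpp1 KO without WT 2. It gave 0 to 1, 0, 0 to 1 and 0 nuclear members and 0 to 3, 0 to 3, 0 and 0 to 8 mitochondrial members called. The nuclear median ranged from -0.11 to 0.018, -0.039 to 0.084, -0.0035 to 0.12 and 0.010 to 0.14, and the mitochondrial median from 0.29 to 0.43, 0.46 to 0.60, 0.10 to 0.34 and -0.80 to -0.55. Of the values of named genes under alternatives, 5019 kept their side of the threshold, 29 lost it, 85 gained it and 0 called values changed sign. DESeq2 size factors and library sizes from nuclear genes changed no count of members. No nuclear member was annotated as a pseudogene, so the alternative without such members was not run. At about 1 CPM a count is worth 0.0295 to 0.0453 CPM, which limits Cox6a2, Cox7a1 and Ppargc1a.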
